A study of Macaca mulatta with 22 samples.

Results

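The genes described here are the kinases and B-type cyclins that carry an oocyte through meiosis and the embryo through its first divisions: AURKA, AURKB, AURKC, CDK1, CCNB1, CCNB2, CCNB3, WEE1, WEE2 and MOS. They were picked by name, and 9 of the 10 have rows in the deposited table, as 11 entries of 35468 in all. WEE2 was not found under its symbol and is not analysed here. CDK1 and CCNB3 each have a second entry whose identifier starts with IMMRNTR. Each sample is 1 oocyte or 1 embryo of the rhesus macaque, with no treatment or genetic change named. Of 7 oocytes, 2 are immature with a germinal vesicle (GV), 2 at the first meiotic metaphase (MI) and 3 at the second (MII), and all were taken after death from superovulated donors. The 15 embryos came from sperm injection and culture: 3 with pronuclei (PN), 2 of 2 cells (2C), 3 of 4 cells (4C), 2 of 8 cells (8C), 3 morulae (Mo) and 2 blastocysts (Bl). MII and PN thus differ in source as well as stage, and no label names a donor, so a p-value sets a difference against the spread between individual oocytes or embryos alone.

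CDK1 bound to a B-type cyclin forms maturation-promoting factor, the activity that ends prophase arrest and drives each metaphase. WEE1 and its oocyte relative WEE2 hold CDK1 inactive by phosphorylating it, and the CDC25 phosphatases undo that. Cyclin B is degraded through the anaphase-promoting complex at the end of each division, while MOS, a kinase upstream of MAPK, helps to hold the mature egg at metaphase II. AURKA acts at the spindle poles, and AURKB and AURKC act at the centromeres in the chromosomal passenger complex, AURKC being the form known from germ cells. Fully grown oocytes make little new RNA, so maternal mRNA is stored, translated and removed until the embryo's own genome is transcribed.

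Values are RPKM, reads scaled by feature length and library size, so a level is relative to all other RNA of that oocyte or embryo. In an embryo, fewer cells with a transcript and less of it per cell cannot be told apart. Estimated depth was 5.62 to 21.52 M reads per library. Morula library 2 had 4277 entries at 1 RPKM or more and the others 6763 to 10017. Marker levels followed the labels only in part: of 12 oocyte markers, 11 were at 1 RPKM or more in each oocyte library and 2 to 5 in the morulae and blastocysts, and the summed level of 7 blastocyst epithelium markers was 944 and 1260 RPKM at Bl and at most 181 elsewhere. In the higher of these KRT18 gave 1206 RPKM, while its partner keratin KRT8 was at most 0.327 RPKM and at 0 in 19 libraries, and CDX2 was highest in an oocyte (8.96 RPKM). Of 15 cumulus and granulosa markers, AMH, FOXL2 and PTX3 were at 0 in all 22 libraries and 1 to 4 were at 1 RPKM or more in any oocyte. Their summed level was 22.5 to 68.3 RPKM at GV, 58.8 to 77.5 at MI and 25.4 to 91.3 at MII, of which TNFAIP6 gave up to 90.4. The 7 spermatozoon markers summed to 10.9 and 45.2 RPKM at 8C, of which TNP1 gave up to 45.2, and to at most 2.355 elsewhere. The source of these reads was not tested.

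Most of these entries varied over development. A limma F test over the 9 stages called 8 of the 11 entries (adjusted p under 0.05), beside 68.3% of all entries tested, so the share is near the background. The exceptions were CCNB1 (limma adjusted p = 0.0514), MOS (0.0828) and the CDK1-named entry IMMRNTR3386 (0.176). All 11 passed the filter of 1 RPKM in 2 libraries. WEE1 passed it only through morulae and blastocysts. Its calls here (in the F test and as 1 of those higher in late embryos) therefore carry no weight. MOS passed it only through MII and PN, and IMMRNTR3386 only through GV, PN, 2C and 4C. By interval, limma called 1 of 11 entries from GV to MI, beside 0.587% of all entries. It was IMMRNTR4784, named CCNB3, which rose (0.210% of all entries rose and 0.377% fell). From MI to MII it called 3, all lower (8.48% either way, 1.49% higher, 6.99% lower). From GV to MII it called 1 higher, AURKA, and 1 lower, CDK1 (9.31%, 0.342% higher, 8.97% lower). Both genes were picked for these moves, so this count is no support. CDK1 is also among those lower from MI to MII, where the same limit applies. After fertilisation limma called 0 entries at first: none between MII and PN (7.66% of all entries, 4.76% higher, 2.91% lower), between PN and 2C (0.468%, 0.126% higher, 0.342% lower) or between 2C and 4C (0.573%, 0.377% higher, 0.196% lower). The counts at an unadjusted p under 0.05 were 2, 0 and 1.

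Later stages held most of the calls, here and over all entries. From 4C to 8C limma called 3 entries, all lower (24.0% of all entries, 13.9% higher, 10.2% lower). In the step from 8C to Mo it called 1 higher and 3 lower (25.4%, 5.39% higher, 20.0% lower). After Mo, 1 was lower at Bl (14.1%, 12.0% higher, 2.12% lower). Between the mean of PN, 2C and 4C and the mean of 8C, Mo and Bl, called early and late embryos below, 3 were higher and 5 lower (58.1%, 25.7% higher, 32.5% lower). With so few libraries, groups often do not overlap. That held for 8 of the 11 entries from GV to MI (46.0% of all), 9 from MI to MII (50.6%), 8 from GV to MII (50.3%), 2 between PN and 2C (21.0%) and 3 between MII and PN (29.3%). It also held for 3 between Mo and Bl (33.0%), 5 between 8C and Mo (38.9%), 4 between 4C and 8C (46.7%), 1 between 2C and 4C (22.5%) and 2 between early and late embryos (12.9%). The intervals share stages, and the maturation results of AURKA and CDK1 were known when the genes were picked.

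**Figure D1:**
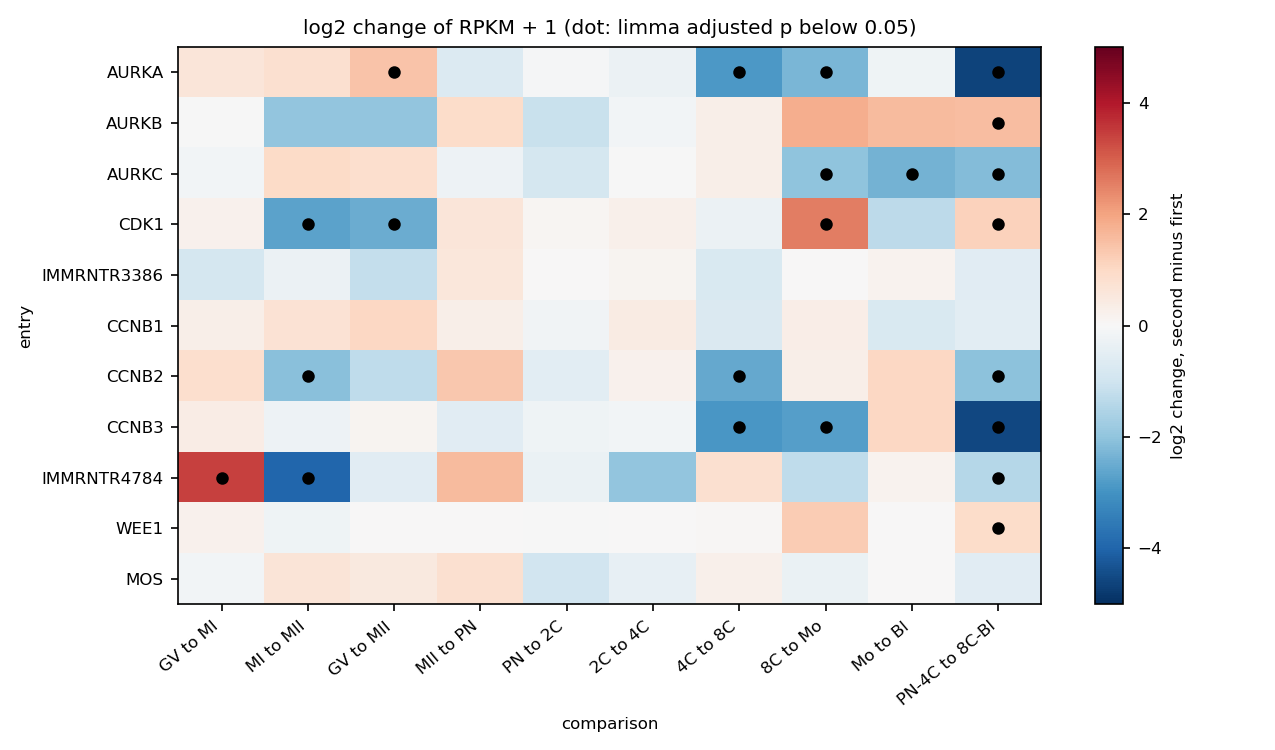
Log2 change of RPKM + 1 for the 11 entries (rows) in 10 comparisons (columns), coloured from blue (lower in the second stage) to red (higher), with a dot where limma's adjusted p is under 0.05. The dots lie at maturation and from 4C onward, with none between MII and 4C. Of all entries, 0.587 to 9.31% were called at maturation and 0.468 to 7.66% between MII and 4C. From 4C onward the share of all entries was 14.1 to 58.1%.

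AURKA was the most abundant Aurora kinase transcript in every oocyte and in every embryo up to 4C. It was 656 and 718 RPKM in the GV oocytes and 1073 and 997 at MI. The MII oocytes had 1892, 1775 and 1812, above every other library of the series. The stages GV, MI and MII did not overlap. PN embryos held 1125, 1180 and 1147, 2C embryos 884 and 1416, and 4C embryos 956, 990 and 835. The level then dropped to 105 and 154 at 8C, 16.3, 24.3 and 41.4 at Mo and 35.1 and 13.4 at Bl.

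AURKA rose from GV to MII by 1.41 log2 units (SE 0.43, limma adjusted p = 0.0443), the increase for which it was picked. Leaving out any one of the 5 libraries ends this call while the change stays between 1.35 and 1.47: limma's adjusted p is 0.268 without GV library 1, 0.178 without GV library 2, 0.102 without MII library 1, 0.103 without MII library 2 and 0.0868 without MII library 3. It also ends with the replicate number as a block (0.0790), a pseudocount of 0.1 (0.0617), no filter (0.0591) and median-of-ratios scaling (0.0693). The call held with a filter of 5 RPKM (limma adjusted p = 0.0344), without Mo library 2 (0.0176) and in a fit of GV and MII alone (0.00479). The single steps from GV to MI (0.59, SE 0.47) and MI to MII (0.82, SE 0.43) were not called. A fit of MI and MII alone called the second step (limma adjusted p = 0.0168). The decreases were larger: AURKA fell by 2.86 log2 units from 4C to 8C (SE 0.43, limma adjusted p = 6.64e-05) and by 2.27 from 8C to Mo (SE 0.43, limma adjusted p = 5.66e-04, or 0.0753 in a fit of those 2 stages alone). From early to late embryos it fell by 4.64 log2 units (SE 0.25, limma adjusted p = 5.25e-11). AURKA's entry spans chromosome 10 from 8154102 to 8177119 (ENSMMUG00000000070) and lies within the span of RTF2, which was 9.43 to 60.3 RPKM.

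AURKC was still at 173 RPKM or more at 8C, the stage at which AURKA had dropped. It was 197 and 190 RPKM at GV, 135 and 233 at MI, and 470, 286 and 302 at MII. PN embryos had 335, 244 and 285, 2C embryos 110 and 223, 4C embryos 136, 137 and 192, and 8C embryos 200 and 173, so the 8C values lie within the range of the GV and MI oocytes and below all MII and PN libraries. Mo embryos had 39.7, 26.6 and 85.8 and Bl embryos 10.01 and 6.31. The Mo libraries lie below all earlier ones and the Bl libraries below all Mo ones.

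From 4C to 8C the AURKC change was 0.28 log2 units (SE 0.48, limma adjusted p = 0.738), which is not a call. AURKC then fell by 2.02 log2 units from 8C to Mo (SE 0.48, limma adjusted p = 0.00377) and by 2.36 from Mo to Bl (SE 0.48, limma adjusted p = 0.00217). Both calls end when only the 2 stages are fitted (limma adjusted p = 0.112 and 0.172). In the oocytes it did not pass the test from GV to MII (0.83, SE 0.48, limma adjusted p = 0.338). The entry is ENSMMUG00000000929, chromosome 19 from 63069073 to 63073672.

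AURKB, the centromeric Aurora kinase of dividing body cells, was at most 28.3 RPKM in any library before the morula, a range that the Mo libraries overlap. It was 18.7 and 28.3 RPKM at GV and 26.3 and 20.0 at MI, then 4.90, 3.19 and 7.93 at MII. PN embryos had 8.38, 26.7 and 4.70, 2C embryos 3.70 and 4.91, 4C embryos 11.99, 0.091 and 6.90, and 8C embryos 4.20 and 5.55. Mo libraries were spread over 34.97, 3.39 and 53.8, and Bl libraries had 92.2 and 38.9. The MII oocytes were all below the GV and MI oocytes, and the low Mo value is that of the library with the fewest detected entries.

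Neither drop of AURKB during maturation was called (GV to MII, log2 change -1.99, SE 0.98, limma adjusted p = 0.242), although a fit of those stages alone called it (0.0124). AURKB rose from early to late embryos by 1.55 log2 units (SE 0.57, limma adjusted p = 0.0256). That call ends without PN library 3 (0.0520), 2C library 1 (0.0593), 8C library 2 (0.0543), Mo library 3 (0.0517) or Bl library 1 (0.0807), without a filter (0.0524) and in a fit of the embryos alone (0.0522). From 8C to Mo the change of 1.81 was not called (limma adjusted p = 0.198), and without Mo library 2 it was 2.93 with an adjusted p of 0.0162. The entry is ENSMMUG00000002997, chromosome 16 from 7958374 to 7964154. How reads that match more than one Aurora gene were counted is not given in the sources used here.

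The 3 Aurora kinases changed places as the main transcript of the family. Of their summed RPKM, which is per length, AURKA made up 75.3 to 88.6% in every library from GV to 4C. AURKC led at 8C, with 64.7 and 52.1%, and at Mo, with 43.6, 49.0 and 47.4%. AURKB led at Bl with 67.1 and 66.4%, and it held 0.155 to 0.374% at MII. The ratio of AURKC to AURKB was 38.1 to 96.0 at MII, 31.2 and 47.5 at 8C, 1.14 to 7.84 at Mo and 0.109 and 0.162 at Bl. Meanwhile the sum of the family fell from 2063 to 2367 RPKM at MII to 309 and 333 at 8C and 58.7 and 137 at Bl. AURKB thus led at Bl in a family whose summed level was lower than in any library up to 8C. These shares follow from the levels above and were not tested separately.

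**Figure D2:**
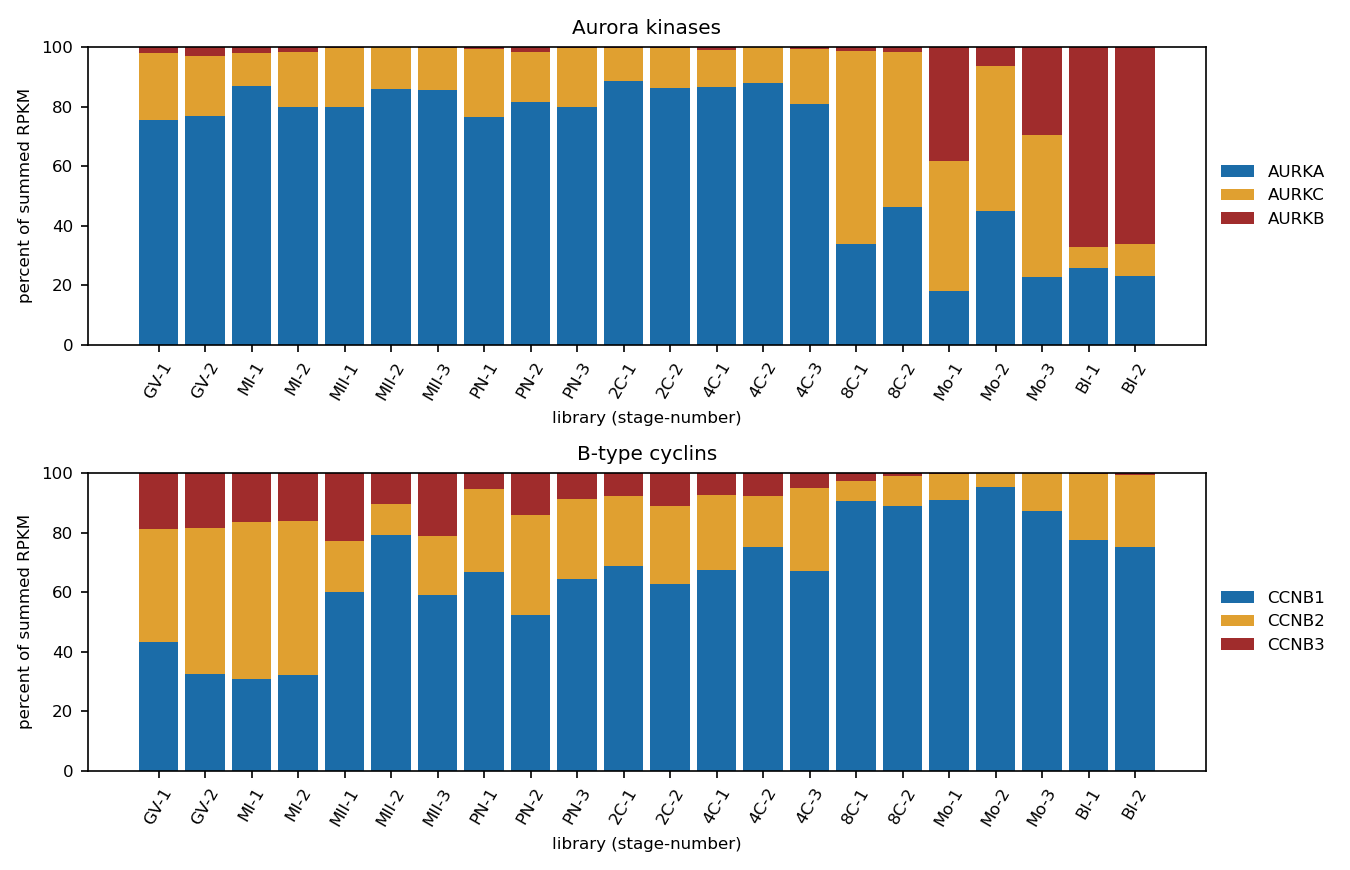
Share of the summed RPKM of the Aurora kinases (top) and of the B-type cyclins (bottom) held by each gene, in percent, as 1 stacked bar per library. The leading Aurora kinase is AURKA up to 4C, AURKC at 8C and Mo and AURKB at Bl, and CCNB1 leads the cyclins from MII onward.

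CDK1, the catalytic subunit of maturation-promoting factor, was high in immature oocytes, low from MII to 8C and highest in morulae. It was 352 and 473 RPKM at GV and 456 and 480 at MI. The MII oocytes had 113, 28.7 and 120, all below the GV and MI oocytes. PN embryos had 152, 77.9 and 121, 2C embryos 286 and 50.3, 4C embryos 120, 104 and 237, and 8C embryos 124 and 108. The 2 libraries of 2C lie on either side of all 3 PN values. Mo embryos had 698, 671 and 696, above every other library, and Bl embryos 410 and 191. Morula library 2, which has few detected entries, was close to the other morulae in CDK1.

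CDK1 fell from MI to MII by 2.66 log2 units (SE 0.66, limma adjusted p = 0.0172) and from GV to MII by 2.46 (SE 0.66, limma adjusted p = 0.0232), the decrease for which it was picked. The first call ends without MI library 1 (0.127), MI library 2 (0.134) or MII library 2 (0.0874). The second ends without GV library 1 (0.128), GV library 2 (0.177) or MII library 2 (0.122), and under median-of-ratios scaling (0.0558). From GV to MI it was nearly level (0.20, SE 0.72). CDK1 rose from 8C to Mo by 2.56 log2 units (SE 0.66, limma adjusted p = 0.00707), with limma adjusted p = 0.0508 without 8C library 2. From Mo to Bl the log2 change of -1.29 was not called (limma adjusted p = 0.226), and under median-of-ratios scaling it was (0.0410). Late embryos exceeded early ones by 1.17 log2 units (SE 0.38, limma adjusted p = 0.0134), a call that ends without 2C library 2 (0.0782, change 0.75) or Bl library 1 (0.0536). This entry is ENSMMUG00000019876, chromosome 9 from 76486172 to 76503083.

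The second entry named CDK1, IMMRNTR3386, lies on another chromosome (16, from 47061047 to 47087111), overlaps the span of ACACA, and its name could not be checked. It was at 0 in 13 libraries and its highest value was 1.83 RPKM, in GV library 1. At the estimated depths its values are 1 to 11 reads, with the lowest value above 0 taken as 1 read. It was called in none of the comparisons, with 2 at an unadjusted p under 0.05. Adding it to the main entry leaves CDK1 at 413 in place of 412 RPKM at GV.

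AURKA and CDK1 moved apart at maturation and crossed over between 4C and Mo, with the 8C libraries on both sides of a ratio of 1. The ratio of AURKA to CDK1 in RPKM was 1.87 and 1.52 at GV and 2.35 and 2.08 at MI. At MII it was 16.8, 61.9 and 15.2, the highest of these in the library with the least CDK1. It was 7.39, 15.2 and 9.51 at PN, 3.09 and 28.2 at 2C, and 8.00, 9.54 and 3.53 at 4C. At 8C it was 0.846 and 1.42, and at Mo 0.0234, 0.0362 and 0.0594. The GV and MI oocytes lie below all MII to 4C libraries, and the Mo and Bl libraries lie below 0.1. Since both genes were picked for their opposite moves from GV to MII, that stretch is a description.

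**Figure D3:**
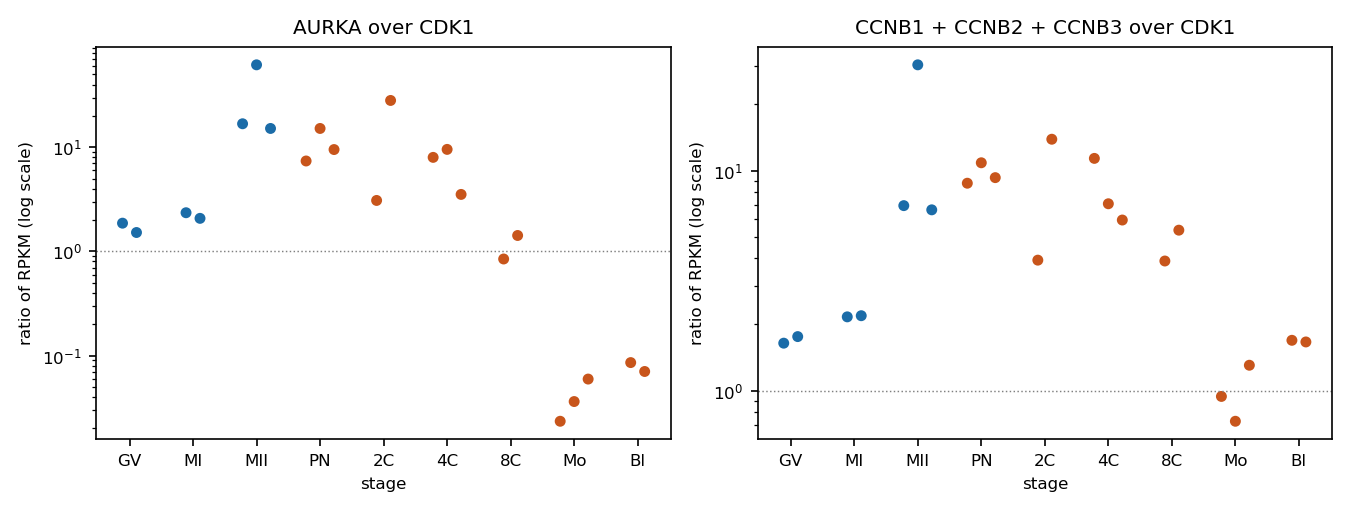
Ratio of AURKA to CDK1 (left) and of the summed B-type cyclins to CDK1 (right) in RPKM, on log scales, by stage, with 1 point per library and a dotted line at 1. Both ratios are highest in an MII oocyte (61.9 and 30.2) and lowest in the morulae, where AURKA is 0.0234 to 0.0594 of CDK1.

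CCNB1, the main mitotic cyclin B, was the steadiest of the abundant members. It was 249 and 270 RPKM at GV, 305 and 337 at MI and 468, 685 and 468 at MII, and these stages did not overlap. PN embryos had 892, 442 and 722, 2C embryos 770 and 439, and 4C embryos 917, 551 and 948. Later values were 436 and 515 at 8C, 598, 465 and 793 at Mo and 537 and 239 at Bl. After MII, neighbouring stages overlap except 4C and 8C, and the Bl value of 239 is the lowest of the series.

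No limma comparison called CCNB1, and 1 had an unadjusted p under 0.05. The largest neighbouring changes were -0.75 log2 units from Mo to Bl (SE 0.44, limma adjusted p = 0.316, or 0.0390 under median-of-ratios scaling) and 0.73 higher from MI to MII (SE 0.44, limma adjusted p = 0.363). From GV to MII the change was 1.03 (SE 0.44, limma adjusted p = 0.163), and a fit of these stages alone called it at 0.0232. From early to late embryos it was -0.51 (limma adjusted p = 0.0927), called without PN library 2 (0.0465) or Bl library 1 (0.0300), while under median-of-ratios scaling the change was 0.017 (0.962). With a standard error near 0.4 log2 units, changes of this size could go uncalled. The entry is ENSMMUG00000018142, chromosome 6 from 67024661 to 67036502.

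CCNB2, the B-type cyclin of Golgi and cytoplasm, peaked at MI. The GV oocytes had 220 and 410 RPKM and the MI oocytes 521 and 544, above every other library. At MII the values were 133, 90.0 and 157. PN embryos had 371, 284 and 301, 2C embryos 267 and 181, and 4C embryos 341, 124 and 391. The 8C embryos had 31.3 and 58.3, Mo embryos 57.4, 22.1 and 115, and Bl embryos 156 and 76.7. MII libraries lie below those of MI, GV, PN and 2C, and the 8C libraries lie below all earlier ones.

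CCNB2 fell from MI to MII by 2.10 log2 units (SE 0.61, limma adjusted p = 0.0381). That call ends without MI library 1 (0.201), MI library 2 (0.211), MII library 1 (0.0768), MII library 2 (0.134) or MII library 3 (0.0548), with a pseudocount of 0.1 (0.0560), with no filter (0.0702) and under median-of-ratios scaling (0.0878). The higher level at PN than at MII (1.35, SE 0.54) was not called (limma adjusted p = 0.147), while without Mo library 2, which bears on the pooled spread alone, the adjusted p was 0.0494. A fit of MII and PN alone also called it (limma adjusted p = 0.0174). CCNB2 fell by 2.55 from 4C to 8C (SE 0.61, limma adjusted p = 0.00444), with 0.0738 without 8C library 1. From early to late embryos it fell by 2.04 log2 units (SE 0.35, limma adjusted p = 7.51e-05). The entry is ENSMMUG00000029628, chromosome 7 from 37475855 to 37495642.

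CCNB3, the cyclin known for its part in the metaphase-to-anaphase step of the first meiotic division, was an oocyte and early embryo transcript. It was 109 and 153 RPKM at GV, 161 and 171 at MI and 179, 91.5 and 168 at MII. PN embryos had 71.0, 119 and 97.8, 2C embryos 85.3 and 78.6, and 4C embryos 101, 57.7 and 71.4. Then came 13.7 and 5.97 at 8C, 1.501, 0.190 and 0.109 at Mo and 1.82 and 2.28 at Bl. Between GV and 4C neighbouring stages overlap, apart from GV and MI, while 8C, Mo and Bl do not overlap with any of these or with each other.

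CCNB3 fell by 2.90 log2 units from 4C to 8C (SE 0.48, limma adjusted p = 1.70e-04) and fell by 2.77 from 8C to Mo (SE 0.48, limma adjusted p = 2.51e-04). The early to late change was -4.56 (SE 0.28, limma adjusted p = 1.89e-10). All 3 calls held under every alternative run. The step up from Mo to Bl was not called (1.03, SE 0.48, limma adjusted p = 0.176). Its entry, ENSMMUG00000014161, spans chromosome X from 47891387 to 47959926.

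A second entry named CCNB3, IMMRNTR4784 (chromosome X, 47907683 to 47910853), lies inside the span of the first and had another profile. It was 1.63 and 5.51 RPKM at GV, 50.5 and 36.6 at MI and 3.17, 0.451 and 2.66 at MII. PN embryos had 6.89, 8.93 and 6.61 and 2C embryos 10.9 and 2.79, and every later library was at most 2.18. The MI values, 563 and 591 estimated reads, stand above all other libraries, where the highest is 143 reads in 2C library 1. The entry rose from GV to MI by 3.41 log2 units (SE 0.65, limma adjusted p = 0.0117) and fell by 3.97 from MI to MII (SE 0.59, limma adjusted p = 5.89e-04). The rise is not called with a pseudocount of 0.1 (0.406) or when MI library 2 (0.102), MI library 1 (0.203) or GV library 1 (0.363) is left out. The fall held under every alternative run.

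Relative to the main CCNB3 entry, IMMRNTR4784 was 0.214 and 0.313 at MI, 0.0149 and 0.0361 at GV and 0.00493 to 0.0177 at MII. Adding both raises CCNB3 at MI from 166 to 209.6 RPKM and at GV from 131 to 134. Whether reads in this stretch were counted for one entry or both is not given in the sources used here.

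Among the B-type cyclins the mix turned towards CCNB1. CCNB2 had the largest share of the summed RPKM in both MI oocytes (51.7 and 52.7%), with CCNB1 at 30.9 and 32.0% and CCNB3 at 16.3 and 16.2%. At MII, CCNB1 had 59.0 to 79.1%. It reached 88.9 and 90.6% at 8C and 87.3 to 95.4% at Mo, before 77.3 and 75.2% at Bl, where CCNB2 had 22.4 and 24.1%. The summed level of the family was 578 to 832 RPKM at GV, 987 to 1052 at MI, 780 to 866 at MII and 845 to 1335 at PN. It was 698 to 1122 at 2C, 733 to 1411 at 4C, 481 to 579 at 8C, 488 to 909 at Mo and 319 to 695 at Bl. Relative to CDK1 the sum was 1.64 and 1.76 at GV, 2.17 and 2.19 at MI, 6.63 to 30.2 at MII, 3.88 and 5.36 at 8C and 0.726 to 1.31 at Mo. This ratio was lower in the morulae than in any library up to 8C, whereas the sum itself overlapped between Mo and most earlier stages.

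**Figure D4:**
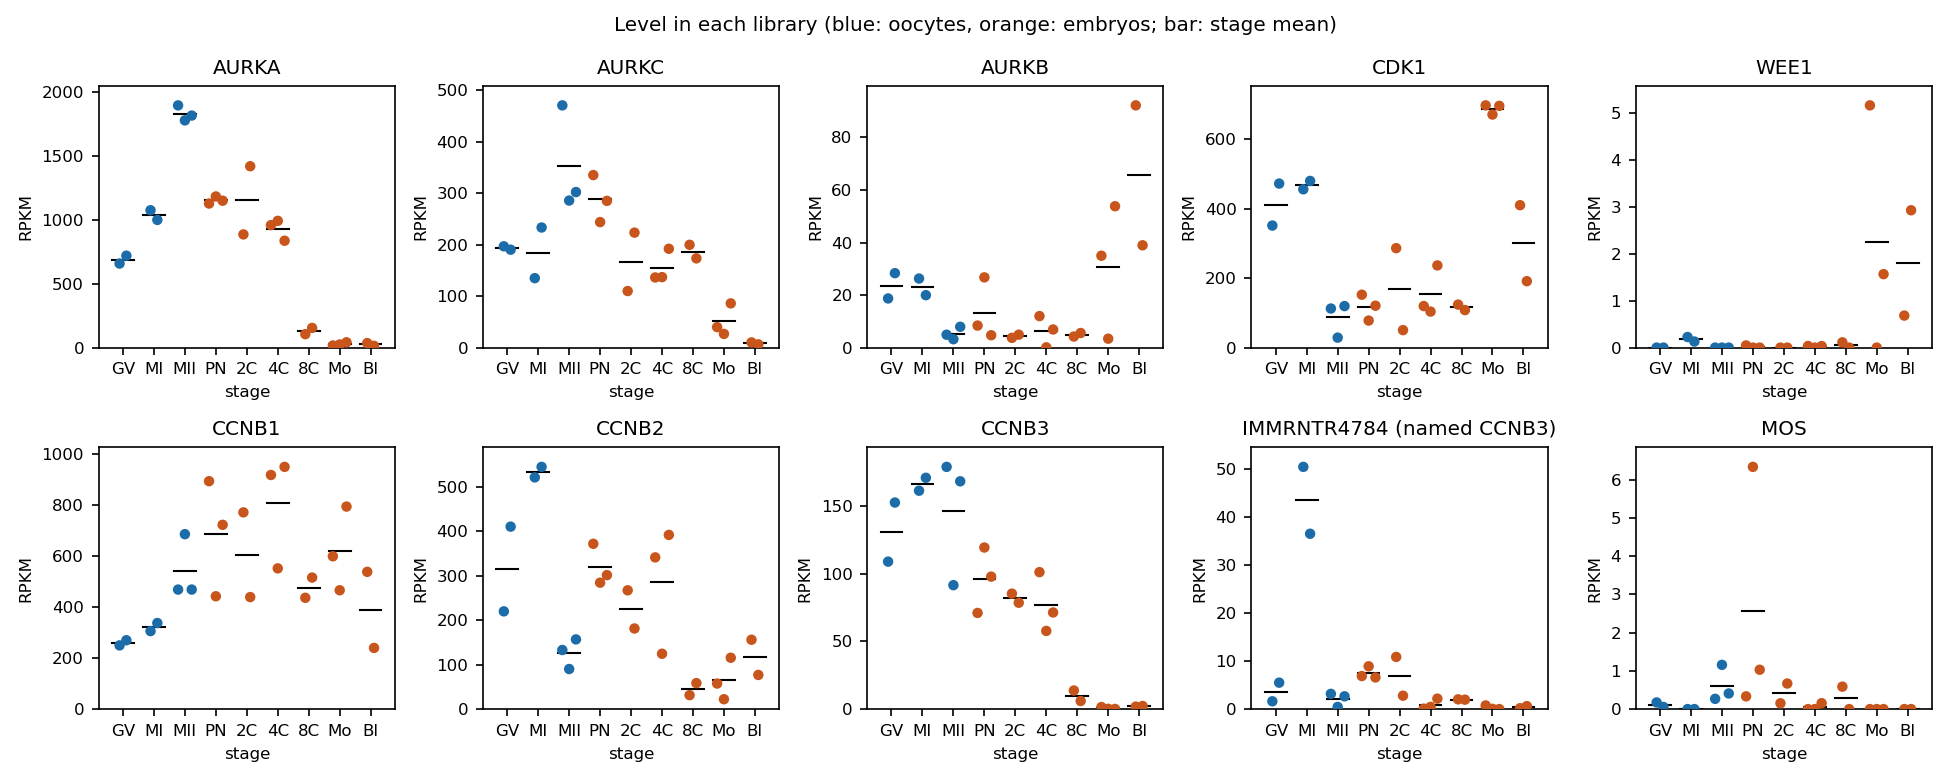
RPKM in each of the 22 libraries by stage for 10 of the 11 entries (blue points oocytes, orange points embryos, black bars stage means), with a linear axis from 0 in each panel. AURKA is highest at MII, CDK1 at Mo, CCNB2 and IMMRNTR4784 at MI, and CCNB1 is the only abundant gene that stays above 200 RPKM in every library.

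WEE1, the somatic inhibitory kinase of CDK1, was barely detected before the morula. It was listed at 0 in 11 of the 17 libraries from GV to 8C, and its highest value there was 0.225 RPKM, in MI library 1, which is 6 estimated reads. MI library 2 and 8C library 1 had 5 reads each, and PN library 1 and 4C libraries 1 and 3 had 1. These counts take the lowest value above 0 as 1 read. Mo embryos had 5.16, 0 and 1.57 RPKM (179, 0 and 60 reads) and Bl embryos 0.682 and 2.93 (18 and 91 reads). The Mo libraries thus ran from 0 to the highest value of the series, and the library at 0 is the one with few detected entries. Because WEE1 passed the filter only through morulae and blastocysts, its tests against earlier stages are not given as support, and these values are a description. Its entry is ENSMMUG00000008759, chromosome 14 from 62356711 to 62375841.

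MOS was scarce in these libraries at every stage, the oocytes included. At the estimated depths and the entry's span of 1206 bp, GV library 2 would have 1.34 reads and MII library 2 23.87, which are not whole. A length of 909 bp was chosen to make the low values whole, with the lowest value above 0 taken as 1 read. The reads were then 3 and 1 at GV, 0 and 0 at MI, and 5, 18 and 8 at MII. They were 3, 42 and 10 at PN, and 2 and 6 at 2C. Later there were 0, 0 and 2 reads at 4C, 11 and 0 at 8C and 0 in all 5 Mo and Bl libraries. In RPKM the MII oocytes had 0.268, 1.16 and 0.409 and the PN embryos 0.333, 6.34 and 1.03, so the PN mean rests mainly on library 2. Every MII library was above every GV and MI library, by a handful of reads. None of the limma comparisons called MOS, and 0 had an unadjusted p under 0.05. The smallest adjusted p was that of early to late embryos (-0.55, SE 0.27, limma adjusted p = 0.0912), called without PN library 1 and with a pseudocount of 0.1. MOS passed the filter only through MII and PN libraries, so neither this test nor those calls are given as support. The entry is ENSMMUG00000015236, chromosome 8 from 58714319 to 58715524.

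**Figure D5:**
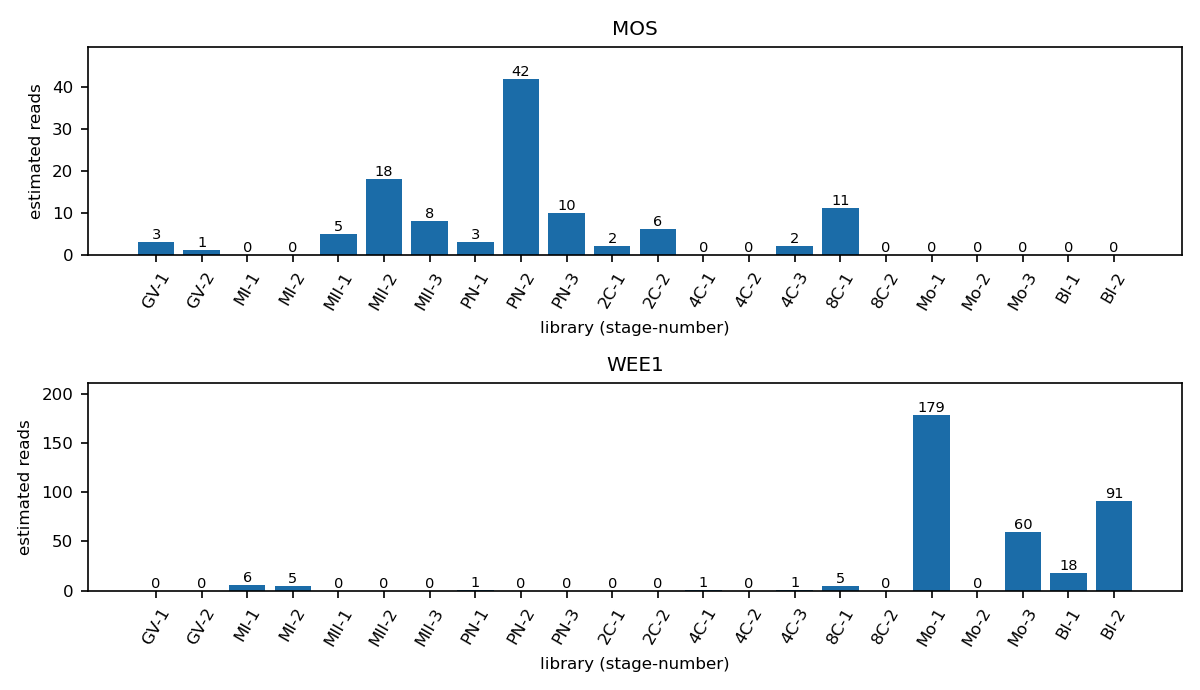
Estimated reads behind MOS (top) and WEE1 (bottom) in each library, computed from RPKM and estimated depth, with the lowest value above 0 taken as 1 read. MOS has at most 42 reads, in PN library 2, and WEE1 at most 6 in any library before the morula and 179 in Mo library 1.

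The other genes of the pathway, 105 tested genes in 8 lists, are given by counts beside the share of all entries called. limma called 0 from GV to MI (3 at an unadjusted p under 0.05), 3 lower from MI to MII (2.86%, beside 8.48% of all entries) and 6 lower from GV to MII (5.71%, beside 9.31% of all entries). From 4C to 8C it called 13 higher and 10 lower (21.9% beside 24.0%), and from 8C to Mo 9 higher and 25 lower (32.4% beside 25.4%). Among 14 genes of the CDC25, Greatwall and phosphatase arm, 1 fell from GV to MII, the phosphatase subunit PPP2R2D (25.0 ± 0.591 to 6.28 ± 0.894 RPKM, SD, n = 2 and 3). From 4C to 8C, 2 rose, led by CDC14A (0.233 ± 0.0873 to 2.61 ± 0.209 RPKM, n = 3 and 2, limma adjusted p = 7.9e-04). The 1 that fell was CDC25C (45.7 ± 7.38 to 19.6 ± 12.8, n = 3 and 2, limma adjusted p = 0.0404), which activates CDK1. Of 14 other cyclins and cyclin-dependent kinases, 4 rose and 1 fell in that interval. CCNA1, a cyclin A known from germ cells, rose there from 0.129 ± 0.117 to 283 ± 71.9 RPKM (limma adjusted p = 5.18e-09), the interval in which AURKA, CCNB2 and CCNB3 fell. It fell again from Mo (112 ± 31.6, n = 3) to Bl (3.98 ± 2.25, n = 2). The 4C means of CCNA1 and CDC14A were under the 1 RPKM of the filter. These genes may have passed it only through stages where they were high, so their tests are a description. The same limit applies to any pathway gene named below with a mean under 1 RPKM on 1 side.

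Among 13 Polo-like kinases and Aurora partners, limma called 0 from GV to MII (3 at an unadjusted p under 0.05), beside 9.31% of all entries. The median change was 0.44 log2 units, and -0.19 over all entries. From Mo to Bl 1 fell, TPX2, the spindle protein that activates AURKA (96.2 ± 23.4 to 36.8 ± 0.869 RPKM, n = 3 and 2, limma adjusted p = 0.0204). In that interval 1 rose, the kinase gene PLK2, while 12.0% of all entries rose and 2.12% fell. From early to late embryos, where 25.7% of all entries rose and 32.5% fell, 1 of these 13 rose and 7 fell, led by CDCA8, a subunit of the chromosomal passenger complex (41.1 to 10.05 RPKM). Against the same background, 6 of 19 genes of the anaphase-promoting complex and its regulators rose and 4 fell. CDC23 led those that rose (3.60 to 22.9 RPKM). FBXO43, the inhibitor that keeps the egg from leaving metaphase II, led those that fell, from 14.4 to 0.395 RPKM. Of 12 spindle checkpoint genes 4 rose and 5 fell, with ZWINT at 4.17 and 28.3 RPKM and BUB1B at 109.6 and 17.4 RPKM. Of 11 genes of the MOS and MAPK arm 3 rose, led by YWHAZ (26.95 to 275 RPKM). In that arm 5 fell, led by the MAPK kinase MAP2K1 (209.9 to 17.7).

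Each member's nearest neighbours in profile were sought among named Ensembl entries with a stage mean of at least 10 RPKM. The measure is Pearson's r of log2(RPKM + 1) over all 22 libraries, given as a description because the libraries share stages and depth. Over the 9 stage means, 6 of the 33 genes named here were again among the nearest: ATP6V1E1, GNPDA2, HIST3H2BB, NELL1, SPIC and BNC1. Over the libraries, the nearest to AURKA were C3ORF56 (0.987), the transcription factor gene TFAP2D (0.975) and the syntaxin STX6 (0.970). For CCNB3 they were GNPDA2 (0.981), CHN2 (0.978) and ALAS1 (0.977), and for AURKC CCDC146 (0.903), BCL2L10 (0.90) and RIT2 (0.897). CDK1 came closest to BTF3L4 (0.875), the proton pump subunit ATP6V1E1 (0.873) and EEF1AKMT1 (0.868). CCNB2 was nearest to RAE1 (0.922), UBE3D (0.913) and ECI2 (0.909), and AURKB to NDUFS5 (0.903), an entry named MMU.1727 (0.896) and MRPS18A (0.895). CCNB1 had weaker neighbours, COPS2 (0.776), RESF1 (0.667) and NAP1L1 (0.664). WEE1 was nearest to NPC2 (0.875), SPIC (0.875) and SEC11C (0.870). Among the sparse entries, MOS was nearest to BNC1 (0.807), IGHM (0.744) and HAGH (0.660), and IMMRNTR3386 had the lowest values of all entries (RIBC1 0.636, FANK1 0.624 and ZNF3 0.593). IMMRNTR4784 came nearest to HIST3H2BB (0.853), NELL1 (0.846) and OR9G4 (0.844). Among the members themselves, AURKA and CCNB3 were the closest pair (0.951), followed by AURKA and AURKC (0.849). AURKA and CDK1 stood at -0.539, and CCNB1 and CCNB2 at 0.046.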

How the data were processed

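The authors deposited 1 table of RPKM values, reads scaled by feature length and library size, with 1 column for each of 22 libraries. Lysates were amplified with a SMARTer kit for low input, per the labels' protocols. The genome build is Mmul_8.0.1 per the submitters' processing notes, the file names none, and positions are printed as deposited. The aligner and counting program are not given in the sources used here. Symbols came from the name table for 7 of the 11 member entries and from the file for 4. The members and lists were chosen with earlier results of these data known. All entries of the members are named, with the 3 entries nearest to each in profile. A pathway gene was the tested entry of highest mean, and 1 per list, comparison and direction could be named, that with the smallest adjusted p.

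Limma (version 3.58.1 in R 4.3.3) fitted log2(RPKM + 1) of 14312 entries (those at 1 RPKM or more in 2 libraries), using every library and a separate mean for each stage. That leaves 13 residual degrees of freedom, and variances were moderated with the trend and robust options of eBayes. This scale understates changes of low genes. A call is a 2-sided Benjamini-Hochberg adjusted p under 0.05 over all entries, and scripts were tested on simulated data. Depth was taken from features spanning under 200 bp, whose values are whole multiples of 1 read: of 481 low values, 437 (90.9%) were within 0.05 of a whole number. For the sparse entries the length that makes all low values whole (within 0.1) gave the reads. It was 909 bp for MOS, 2172 for WEE1, 908 for IMMRNTR4784 and 317 for IMMRNTR3386. The search took the lowest value above 0 as 1 read, so a longer length that also fits would give more reads. The counts are thus the smallest that fit. These are amplified reads without molecular identifiers. Alternatives were a pseudocount of 0.1, no filter, a filter of 5 RPKM, median-of-ratios scaling, blocking on the replicate number, fitting the compared stages alone, and leaving out each library. Other steps used pandas 2.3.3, numpy 2.4.6 and matplotlib 3.10.9 (Python 3.11.15).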

Additional observations from a re-analysis of the deposited data

How the results depend on the processing

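Of 22 called changes of single entries, 10 held under every alternative (among them that of WEE1, which passed the filter only through late embryos), 12 lost the call under at least 1 and 0 changed direction. Another 16 uncalled changes were called under some alternative. Among them were those of MOS and IMMRNTR3386, which passed the filter only through oocytes and early embryos. The cause was not tested. With a pseudocount of 0.1, members called were 0 from GV to MI, 1 from GV to MII and 2 from Mo to Bl. Without a filter 1 was called from GV to MII. Under median-of-ratios scaling 0 were called from GV to MII and 3 from Mo to Bl, and the CCNB1 change from early to late embryos turned from -0.51 to 0.017, uncalled in both. Scaling moved the median change of all entries from -0.19 to -0.04 for GV to MII, from -0.15 to -0.01 for MI to MII, from 0.23 to 0.08 for Mo to Bl, from -0.38 to -0.27 for 8C to Mo, from -0.15 to 0 for PN to 2C and from -0.15 to 0.07 for early to late embryos. Fits of only the stages compared called 0 from Mo to Bl, 2 from 8C to Mo, 2 from MII to PN, 5 from GV to MII and 5 from MI to MII.

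Leaving out single libraries gave 0 to 1 members called from GV to MI, 1 to 3 from MI to MII, 0 to 2 from GV to MII, 0 to 1 from MII to PN, 2 to 3 from 4C to 8C, 3 to 6 from 8C to Mo, 7 to 10 from early to late embryos and 6 to 9 in the F test. Samples of a stage left with 1 library are assumed to vary like the others. With the replicate block 1 member was called from GV to MII (CDK1), and in the other comparisons its count stayed within 1.5 times the count without it. Same-numbered libraries of different stages did not deviate together (median r 0.007 over 78 pairs, 3 above 0.1), and 9 of the 22 libraries correlated best with their own number. MOS, WEE1 and IMMRNTR3386 rest on few reads (at most 42, 179 and 11 estimated in a library), and the part of depth in this was not tested.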

Other observations

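Of 14 genes known to turn on translation of stored cyclin mRNA or to process its tail, limma called 0 between oocyte stages. At an unadjusted p under 0.05 there were 0, 3 and 3 from GV to MI, MI to MII and GV to MII. Of all entries limma called 0.587%, 8.48% and 9.31% in these intervals. From 4C to 8C 1 rose and 2 fell (13.9% and 10.2% of all entries), and from 8C to Mo 0 rose and 6 fell (5.39% and 20.0% of all entries). DAZL, an RNA-binding protein of germ cells, fell from 184 ± 69.0 RPKM at 4C (SD, n = 3) to 38.2 ± 0.377 at 8C (n = 2) and 0.667 ± 0.648 at Mo (n = 3). Of 8 genes of the cAMP pathway that keeps the oocyte in prophase, 1 fell from GV to MII, beside 8.97% of all entries. It was the cyclase gene ADCY3 (38.9 ± 5.44 to 5.89 ± 2.37, n = 2 and 3, limma adjusted p = 0.00270).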
